A study of Mus musculus with 8 samples.

Results

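The genes described here form the machinery that loads, docks and fuses synaptic vesicles at nerve terminals. The set holds 35 genes, chosen by name: synapsins, synaptotagmins, SNARE proteins and the factors that take SNARE complexes apart, complexins, Rab3 GTPases, active zone proteins, vesicular glutamate transporters, SV2 proteins and a few other vesicle proteins. All 35 have at least 1 probe on the Illumina mouse bead array. Of these, 31 had a probe that 4 or more of the 8 arrays detected at a detection p under 0.05, out of 11018 named genes that passed the same filter. Each gene was read from its brightest such probe. The samples were 1 mm punches of bilateral medial prefrontal cortex from 10-week-old male mice. The 4 samples of the IMO group came from mice that had been immobilized for 2 h and were examined 6 days later under basal conditions. The 4 No stress samples had no immobilization. The labels name no strain, genotype or drug. They do not state whether the arrays come from different animals, and p-values therefore measure only the spread between samples, which may be technical. In tissue punches, fewer cells of a type and less RNA per cell cannot be told apart.

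Transmitter-filled vesicles are held in a reserve pool by synapsins, docked at the active zone by Rab3, RIM and Munc13 proteins, and fused when calcium binds synaptotagmin and the SNARE complex zips up under the control of complexin. NSF and its SNAP adaptors then pull the spent complexes apart, and clathrin adaptors retrieve the membrane. Most of these proteins come in paralogues that differ between neuron types. The comparison asked whether transcripts of this machinery, or the balance within its families, differed 6 days after a single immobilization.

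Promoter windows of 3 members are shown because they carry a match to at least 1 of 3 motifs known from neuronal genes: the cyclic AMP response element TGACGTCA, the Egr site GCGGGGGCG and the NRF1 core CGCATGCG. Each window is the 250 bases before the gene start in the RefSeq table of build GRCm38.p6, written along the gene's own strand, and capitals mark the motif matches found on either strand. Syn1 lies at chrX:20920919-20921168 on the minus strand, Syn2 at chr6:115134652-115134901 on the plus strand and Bsn at chr9:108190384-108190633 on the minus strand.
Syn1: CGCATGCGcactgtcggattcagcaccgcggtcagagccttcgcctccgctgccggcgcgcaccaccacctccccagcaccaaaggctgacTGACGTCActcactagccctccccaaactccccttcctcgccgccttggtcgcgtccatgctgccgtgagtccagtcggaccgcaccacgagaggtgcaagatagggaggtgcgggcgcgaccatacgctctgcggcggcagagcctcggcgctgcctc
Syn2: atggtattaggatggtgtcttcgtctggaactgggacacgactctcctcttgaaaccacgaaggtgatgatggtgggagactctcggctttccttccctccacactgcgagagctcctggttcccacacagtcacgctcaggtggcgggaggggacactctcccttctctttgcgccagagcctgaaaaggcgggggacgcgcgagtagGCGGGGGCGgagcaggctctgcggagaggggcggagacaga
Bsn: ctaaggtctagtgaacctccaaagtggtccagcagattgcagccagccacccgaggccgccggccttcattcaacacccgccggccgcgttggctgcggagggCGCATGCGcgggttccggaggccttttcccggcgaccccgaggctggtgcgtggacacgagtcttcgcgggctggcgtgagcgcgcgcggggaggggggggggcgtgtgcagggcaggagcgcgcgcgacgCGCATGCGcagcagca
Windows were found for 27 of the 35 members. The response element was matched in 1 of these (Syn1), the Egr site in 1 (Syn2) and the NRF1 core in 2 (Syn1 and Bsn). Over all 27025 genes with a window in the table the shares with a match were 1.77%, 2.93% and 1.75%. These matches describe the letters in the windows.

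Between 20012 and 21038 of 45281 probes were detected per array. Of 8 neuronal markers 7 were tested (Nefl was not), and their mean, centred on the mean over all arrays, lay between -0.103 and 0.082 on the log2 scale. A pair of arrays, IMO replicate 1 and No stress replicate 6, stood apart in some of the tissue markers. The labels do not say that their punches differed. Of 10 thalamic and septal markers 9 were tested, and their centred mean was 0.711 and 0.742 in this pair against -0.396 to -0.071 elsewhere. Prkcd, Zic1, Zic2 and Zic4 of that list were higher in both arrays than in any other; Zic1, a transcription factor of septal and thalamic neurons, had log2 signals of 11.86 and 11.63 against 8.81 to 9.70. Tcf7l2, Calb2, Rora, Tnnt1 and Ramp3 did not follow this in both arrays, and Ramp3 was lowest in IMO replicate 1. Among upper-layer cortical markers Cux2, Lmo4 and Mef2c were lowest in both arrays, while Cux1 and Inhba were highest in IMO replicate 1. Results are therefore also given without both arrays. A second deposited table holds other signals under the same sample names. The deposited detection p-values follow the order of the signals in the table used here (0% of steps out of order) and not in the second (33.4% to 36.8%), and the sources used here do not settle which of them holds the labelled arrays.

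No member passed the test once p was adjusted. By limma, 0 of the 20531 probes tested (0%) had a Benjamini-Hochberg adjusted p under 0.05, against 2183 with an unadjusted p under 0.05, and the smallest adjusted p of a member was 0.239 (Syn3). At an unadjusted p under 0.05, 2 of 31 members had higher signal in IMO samples, Syn3 and Bsn, where the share of all genes tested was 4.74%. On the other side, 2 members had lower signal, Snap91 and Vamp2, where the share of all genes was 5.86%. The groups did not overlap in 2 members with higher signal (all genes 3.25%) and 1 with lower signal (all genes 3.92%). The members' counts are thus near the background. Mean signal was higher in IMO samples in 17 members (54.8%, all genes 47.6%) and lower in 14. The median log2 difference of the members was 0.01, and that of all genes -0.01. In absolute size the median was 0.10 for the members and 0.10 for all genes.

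**Figure D1:**
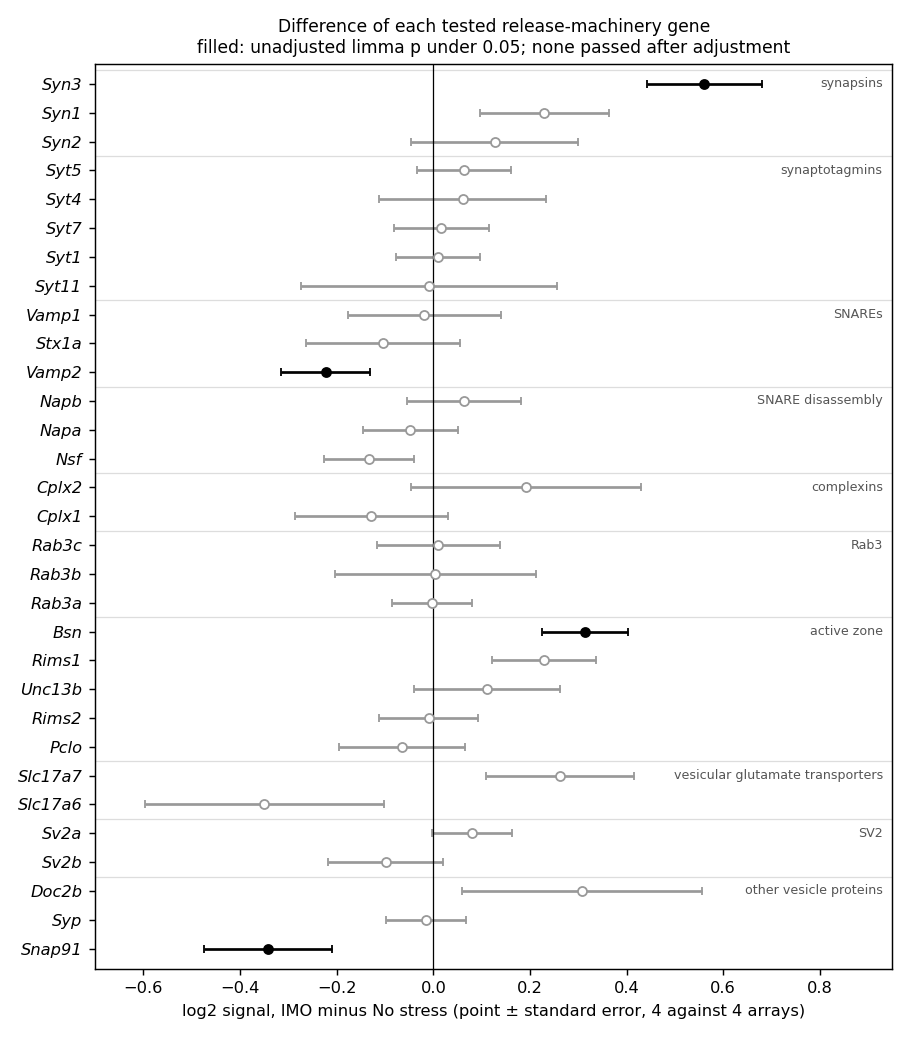
Difference in log2 signal between IMO and No stress arrays for the 31 tested genes, with the standard error as the bar (4 against 4 arrays), grouped by family. Filled points mark Syn3, Bsn, Snap91 and Vamp2, the genes with an unadjusted limma p under 0.05. The widest differences are Syn3 at 0.56 on the right and Slc17a6 at -0.35 on the left.

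Among the synapsins, which coat vesicles and tie them to the cytoskeleton, Syn3 stood out. Syn3 is the family member known for expression in immature neurons and, in the adult, at some terminals only. Its brightest probe (ILMN_1223010) read 8.09, 8.19, 7.95 and 8.08 in IMO replicates 1 to 4 and 7.80, 7.26, 7.43 and 7.58 in No stress replicates 5 to 8. Every IMO value lay above every No stress value. The means were 8.08 ± 0.10 and 7.52 ± 0.23 (SD, n = 4 each), a 1.48-fold higher signal. This is a log2 difference of 0.56 (standard error 0.118). By limma the unadjusted p was 0.000674 and the adjusted p 0.239. Its other 3 tested probes, all with signals close to background, had differences of 0.27, 0.20 and 0.06. They were detected on 4 IMO arrays each but on 3, 1 and 3 No stress arrays, so the second passed the detection filter through the IMO group, and its difference is given as a description only. The array holds 7 Syn3 probes, and those not tested were detected on 2, 0 and 1 arrays. The mean of the 4 tested probes, which includes the one that passed through the IMO group, had a difference of 0.28 (standard error 0.0722). For the brightest probe, leaving out single arrays kept the difference between 0.48 and 0.66. Without IMO replicate 1 and No stress replicate 6 it was 0.47 (unadjusted limma p 0.00338). In the second table the same probe gave -0.22 with a standard error of 0.135.

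Syn1, the abundant synapsin of mature terminals, read 13.34, 13.39, 13.56 and 13.53 in IMO samples and 13.40, 12.81, 13.42 and 13.27 in No stress samples. The groups overlapped, with the lowest value in No stress replicate 6. The log2 difference of 0.23 (standard error 0.134, adjusted limma p 0.585) was 0.09 without that array. Syn2 had a difference of 0.13 (standard error 0.174) and turned to -0.03 without No stress replicate 7. The dimmer tested probe of Syn1 had a difference of 0.04 (standard error 0.124) and that of Syn2 one of -0.01 (0.123). By their brightest probes all 3 synapsins thus had higher mean signal in IMO samples, and Syn3 alone had an unadjusted limma p under 0.05.

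**Figure D2:**
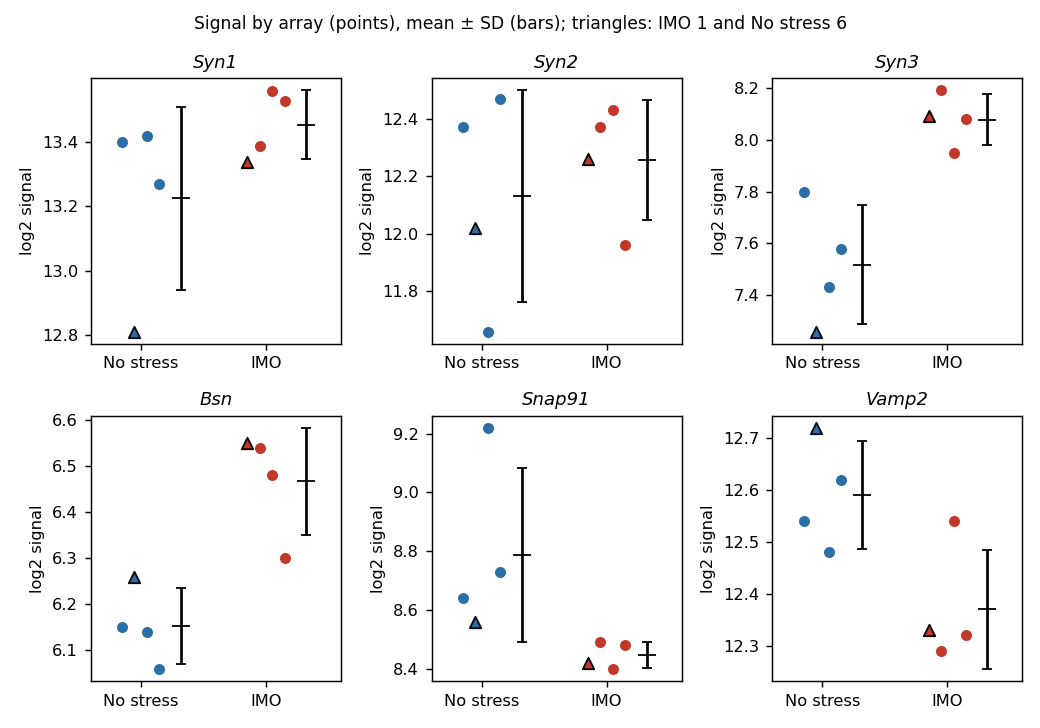
Log2 signal of the 3 synapsins and of Bsn, Snap91 and Vamp2 in each array, with the group mean ± SD beside the points (n = 4 each); the vertical axes differ and do not start at 0. Triangles mark IMO replicate 1 and No stress replicate 6. The groups are apart in Syn3, Bsn and Snap91 and overlap in Syn1, Syn2 and Vamp2.

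Active zone genes encode the scaffold at which vesicles dock and are primed. Bsn encodes bassoon, a giant scaffold protein. Its only tested probe (ILMN_1247629) read 6.55, 6.54, 6.48 and 6.30 in IMO samples and 6.15, 6.26, 6.14 and 6.06 in No stress samples. No value overlapped between the groups, although all lay close to background, which ended at a log2 signal of 6.05 to 6.13 depending on the array. Another Bsn probe (ILMN_2710597) was detected on 0 arrays. The tested probe was detected on 4 IMO and 3 No stress arrays. On the log2 scale the difference was 0.31 (standard error 0.0892, unadjusted limma p 0.00502, adjusted p 0.333). Leaving out any 1 array gave 0.28 to 0.37. It was 0.32 without both arrays that stood apart, and was 0.07 (standard error 0.115) in the second table.

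Rims1, which links Rab3 to the priming factors and to calcium channels, read 11.56, 11.29, 11.53 and 11.14 in IMO samples and 11.13, 11.08, 11.13 and 11.26 in No stress samples. IMO replicates 1, 2 and 3 were above all No stress arrays, and IMO replicate 4 was among them. The difference was 0.23 (standard error 0.107, unadjusted limma p 0.0578), and 0.31 (p 0.0123) without IMO replicate 4. With single arrays left out the p of Rims1 ran from this value to 0.155 (without IMO replicate 3). Its dimmer probe had a difference of -0.11. Rims2, the paralogue of Rims1, had a difference of -0.01, the priming factor Unc13b one of 0.11 and Pclo, which encodes the bassoon relative piccolo, one of -0.06. The standard errors of these 3 were 0.102, 0.151 and 0.130. Without No stress replicate 6 the difference of Unc13b was -0.02, without IMO replicate 4 that of Rims2 was 0.07 and that of Pclo 0.04. Unc13a, the main Munc13 form of cortical excitatory terminals, was detected on 0 arrays by either of its 2 probes.

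The 3 SNARE members tested (Vamp2, Stx1a and Vamp1) had lower mean signal in IMO samples. Vamp2, the vesicle SNARE of most forebrain synapses, read 12.33, 12.29, 12.54 and 12.32 in IMO samples and 12.54, 12.72, 12.48 and 12.62 in No stress samples. IMO replicates 1, 2 and 4 were below all No stress values, while replicate 3 was within them. The difference was -0.22 (standard error 0.0915), a change of -14.3% (unadjusted limma p 0.0339, adjusted p 0.433). The unadjusted p passed 0.05 upwards without IMO replicate 1 (p 0.0656), 2 (0.0900) or 4 (0.0750), without No stress replicate 6 (0.0918) or 8 (0.0693), and without both arrays that stood apart (difference -0.17, p 0.142).

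Stx1a, the plasma membrane SNARE, read 12.17, 12.57, 12.66 and 12.34 in IMO samples and 12.51, 12.13, 12.67 and 12.85 in No stress samples. The lowest value of each group was in the array that stood apart, and the difference of -0.10 had a standard error of 0.159. Vamp1, the vesicle SNARE known from fast-spiking interneurons and from brainstem and spinal neurons, had values of 7.56 to 7.63 in IMO replicates 2 to 4, of 8.36 in IMO replicate 1 and of 7.78 to 7.85 in No stress samples. Its difference was -0.02, and -0.21 (unadjusted limma p 0.0325) without IMO replicate 1. With single arrays left out its p ran from this value to 0.970 (without No stress replicate 7). Snap25, the partner of syntaxin in the fusion complex, was detected on 0 arrays by its 2 probes and gave no measurement, so the SNARE set was incomplete here.

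The genes for SNARE disassembly had differences from -0.13 to 0.06. The ATPase Nsf read 13.07, 12.77, 12.80 and 12.94 in IMO samples and 12.98, 13.08, 13.10 and 12.95 in No stress samples. Except for IMO replicate 1, the IMO values lay below the No stress values, and the difference was -0.13 (standard error 0.0928, adjusted limma p 0.657). Its dimmer probe gave 0.14. Napb, the neuronal SNAP adaptor, read 12.78, 12.70, 12.82 and 12.71 in IMO samples and 12.89, 12.38, 12.61 and 12.87 in No stress samples, with both extremes among the No stress arrays. Its difference was 0.06 (standard error 0.117), turning to -0.04 without No stress replicate 6. The ubiquitous adaptor Napa had a difference of -0.05 (standard error 0.0981), and 0.002 without No stress replicate 7.

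Complexins clamp and activate the SNARE complex, Cplx1 mainly in inhibitory and subcortical terminals and Cplx2 in cortical excitatory ones. Cplx1 read 13.43, 12.74, 12.64 and 12.78 in IMO samples and 13.08, 13.11, 13.05 and 12.88 in No stress samples. IMO replicate 1 was the highest of all arrays and the other IMO arrays were the lowest. Over all arrays the difference was -0.13 (standard error 0.158, adjusted limma p 0.825). It was -0.31 (unadjusted p 0.00845) without IMO replicate 1 and -0.28 (unadjusted p 0.0196, adjusted p 0.374, no overlap) without both arrays that stood apart. Without IMO replicate 3 it was -0.04 (unadjusted p 0.799). Cplx2 read 11.42, 10.87, 10.81 and 9.98 in IMO samples and 10.43, 10.71, 10.60 and 10.59 in No stress samples. The highest and the lowest value of Cplx2 both belonged to the IMO group, and its difference was 0.19 (standard error 0.238). It ran from -0.03 (unadjusted limma p 0.896) without IMO replicate 1 to 0.45 (0.0143) without IMO replicate 4, the largest and the smallest p with any 1 array left out.

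Synaptotagmins, the calcium sensors of release, had differences from -0.01 to 0.06 in the 5 genes tested. Syt5 read 10.85, 11.10, 11.03 and 11.06 in IMO samples and 11.11, 10.86, 10.81 and 11.01 in No stress samples. The groups covered nearly the same range, and the difference was 0.06 (standard error 0.0971). Syt4, which lacks full calcium binding and is known from large dense-core vesicles, read 12.24, 12.80, 12.95 and 12.96 in IMO samples and 12.85, 12.33, 12.85 and 12.66 in No stress samples. Its lowest value in each group was in IMO replicate 1 and No stress replicate 6. The difference of 0.06 (standard error 0.173) was 0.11 without these arrays and lay between -0.05 and 0.23 when any 1 array was dropped. Syt1, the main sensor for fast release in forebrain neurons, had a difference of 0.01 (standard error 0.0864), Syt7, a sensor of asynchronous release, one of 0.02 (0.0977) and Syt11, a form without calcium binding, one of -0.01 (0.265). The sign of each of these 3 turned when some single array was left out. Syt2, the fast sensor of brainstem and some interneuron terminals, was detected on 0 arrays.

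Vesicular glutamate transporters fill vesicles, Slc17a7 (VGLUT1) in cortical projection neurons and Slc17a6 (VGLUT2) mainly in thalamic and other subcortical ones. Slc17a7 read 12.71, 12.83, 13.07 and 13.06 in IMO samples and 12.72, 12.28, 13.03 and 12.58 in No stress samples. IMO replicates 3 and 4 were highest and No stress replicate 6 lowest. The difference was 0.26 (standard error 0.153, adjusted limma p 0.585). It was 0.14 (unadjusted limma p 0.336) without No stress replicate 6 and 0.39 (0.0166) without No stress replicate 7, the largest and the smallest p with any 1 array left out. Slc17a6 read 8.97, 9.17, 9.13 and 9.10 in IMO samples and 9.37, 10.30, 9.31 and 8.80 in No stress samples. No stress replicate 6 was the highest array, and IMO replicate 1, the other array that stood apart, was not raised. The difference was -0.35 (standard error 0.247, adjusted limma p 0.660). It was -0.07 (unadjusted limma p 0.646) without No stress replicate 6 and -0.57 (0.0256) without No stress replicate 8. These were the largest and the smallest p with any 1 array left out.

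Rab3 GTPases, which guide vesicles to the active zone, had differences within 0.01 of 0 in all 3 forms. Rab3a, the main neuronal form, read 12.57, 12.64, 12.73 and 12.55 in IMO samples and 12.69, 12.55, 12.69 and 12.57 in No stress samples, almost the same values in both groups (standard error 0.0825). Rab3c read 6.60, 6.70, 6.65 and 6.92 in IMO samples and 7.02, 6.45, 6.61 and 6.75 in No stress samples, with a standard error of 0.127. Rab3b, whose standard error was 0.208, had a difference of 0.30 (unadjusted limma p 0.112) without the arrays that stood apart.

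SV2 proteins are vesicle glycoproteins that set the size of the releasable pool. Sv2a read 12.62, 12.72, 12.72 and 12.58 in IMO samples and 12.61, 12.69, 12.49 and 12.54 in No stress samples, a difference of 0.08 (standard error 0.0826). Its other tested probe, of nearly the same mean signal, had a difference of -0.01 (standard error 0.0739). Sv2b read 12.34, 12.78, 12.74 and 12.66 in IMO samples and 12.96, 12.63, 12.61 and 12.72 in No stress samples, a difference of -0.10 (standard error 0.12). Both pairs of groups overlapped, and for Sv2b the lowest array was IMO replicate 1, without which the difference was -0.003. Sv2c, the form of the basal ganglia and brainstem, was detected on 0 arrays.

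Of the remaining vesicle genes, Snap91 encodes AP180, the neuronal adaptor that recruits clathrin to retrieved vesicle membrane. Its brightest probe (ILMN_1247504) read 8.42, 8.49, 8.40 and 8.48 in IMO samples and 8.64, 8.56, 9.22 and 8.73 in No stress samples. Every IMO value was below every No stress value, and No stress replicate 7 was the highest. The difference was -0.34 (standard error 0.133), a change of -21.1% (unadjusted limma p 0.0267, adjusted p 0.417). It was -0.20 without No stress replicate 7 (p 0.0447), and the unadjusted p was 0.0574 without IMO replicate 3. Its other 2 tested probes gave -0.23 and 0.10, and the second table gave -0.06 (standard error 0.202).

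Doc2b, a calcium sensor of spontaneous release, read 9.11, 8.20, 8.14 and 8.51 in IMO samples and 8.55, 8.58, 7.94 and 7.66 in No stress samples. IMO replicate 1 was highest, and the difference of 0.31 (standard error 0.249) was 0.10 without it. The vesicle membrane protein synaptophysin (Syp) had one of the smallest differences, -0.02 with a standard error of 0.0827.

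The members varied among themselves in spread. The pooled standard deviation within groups ran from 0.0788 log2 units in Rab3a to 0.479 in Syt11, with a median of 0.198, where the median of all genes tested was 0.148. IMO replicate 1 and No stress replicate 6 together held the lowest values of 5 members (Syt4, Syt7, Stx1a, Rab3c and Unc13b) and the highest values of 2 (Cplx1 and Doc2b). Over all genes tested the corresponding shares were 10.6% and 7.79%. No stress replicate 6 alone was the lowest array for 12 of the 31 members, and IMO replicates 1 and 3 were each the highest for 7. The shares of all genes for these single arrays were not computed, so the counts only describe the members. Without both arrays, 2 members were higher (Syn3 and Bsn, where all genes had 5.06%) and 2 lower (Snap91 and Cplx1, all genes 6.45%) at an unadjusted limma p under 0.05.

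**Figure D3:**
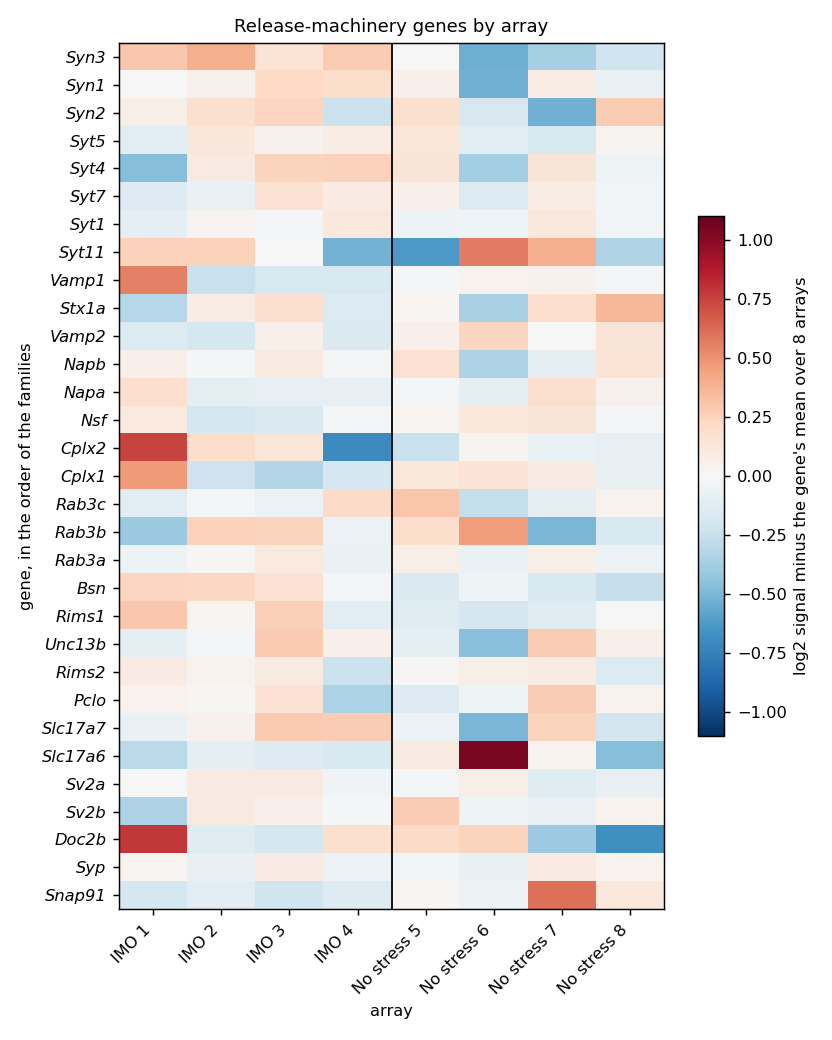
Log2 signal of each tested gene in each array minus the gene's mean over the 8 arrays, in the family order of the plot of differences, with a black line between the groups. Syn3 is above its mean in the 4 IMO columns, Slc17a6 is highest in No stress 6, and Cplx1, Vamp1 and Doc2b are highest in IMO 1.

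The balance between paralogues was compared as the log2 ratio of 2 probes within each array, for 16 of the 20 pairs listed (the others include a gene that was not tested). The level of such a ratio depends on the probes, so only its difference between groups is given, and it shows unequal change only. None of the 16 pairs passed a two-sided exact permutation test at 0.05, for which 4 against 4 arrays allow no p below 0.0286, and the smallest Benjamini-Hochberg p over the pairs was 0.343. The Syn2/Syn3 ratio was lower in IMO samples by a log2 difference of -0.43 (standard error 0.187, exact permutation p 0.0571), and Syn1/Syn3 by -0.33 (0.138, exact p 0.0857). In Bsn/Pclo the difference was 0.38 (0.131, exact p 0.0571), and with both arrays that stood apart left out it was 0.44 with no overlap. Rims1/Rims2 had a difference of 0.24 (0.104, exact p 0.0857).

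The ratio of the vesicular transporters, Slc17a7/Slc17a6, had the widest difference, 0.61 (standard error 0.426, exact permutation p 0.143), and 0.23 without both arrays. Cplx1/Cplx2 had a difference of -0.32 (0.239, exact p 0.200), Vamp1/Vamp2 of 0.20 (0.212, exact p 0.486) and Sv2a/Sv2b of 0.18 (0.119, exact p 0.229). For Vamp1/Vamp2 the direction turned to -0.03 without both arrays, and for Sv2a/Sv2b the groups then no longer overlapped (0.17). The Sv2a/Sv2b ratio used the brightest Sv2a probe, and the ratio with its nearly as bright other probe was not computed. The other pairs had differences from -0.11 (Napa/Napb) to 0.10 (Syn1/Syn2), each smaller than its standard error. Of these, Rab3a/Rab3b moved to -0.31 and Rab3b/Rab3c to 0.33 without both arrays.

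**Figure D4:**
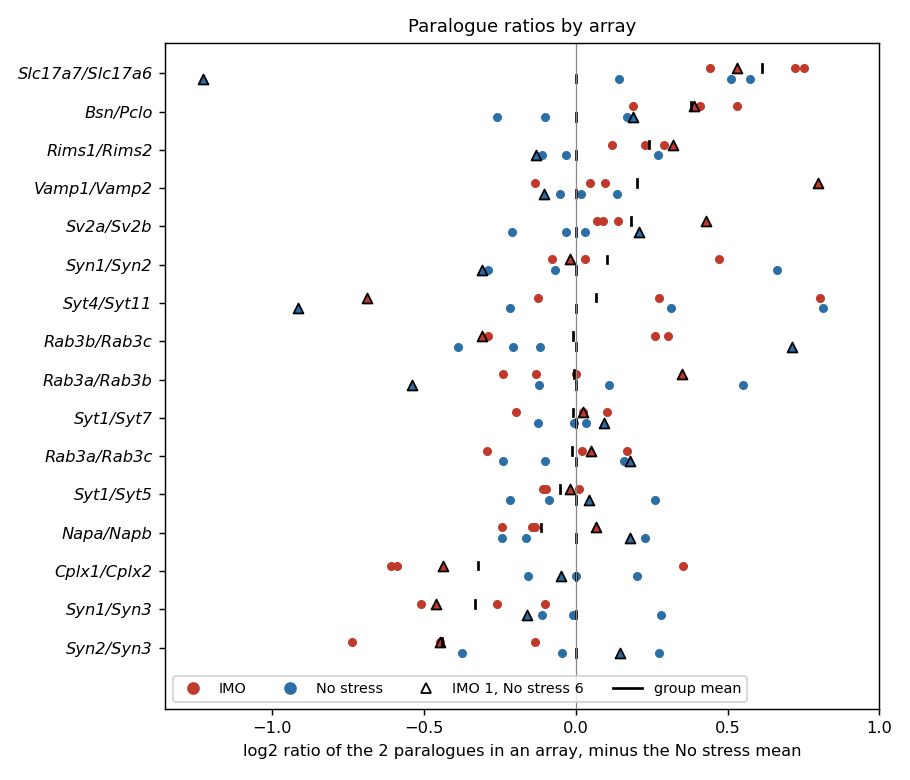
Log2 ratio of 2 paralogues in each array, shifted so that the mean of the No stress arrays is 0, with IMO arrays above and No stress arrays below on each line. Black ticks are group means and triangles are IMO replicate 1 and No stress replicate 6; the groups overlap in all 16 pairs, and the widest difference of means is 0.61 in Slc17a7/Slc17a6.

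Other genes of the vesicle cycle were taken from lists that hold 69 genes, of which 64 are on the array and 54 were tested. At an unadjusted limma p under 0.05, 5 had higher signal in IMO samples (all genes 4.74%) and 0 lower (all genes 5.86%), and 0 passed after adjustment. The median log2 difference was 0.05. Of 14 endocytosis genes 3 were on the higher side, of 8 other SNARE and fusion regulators 1, of 14 other active zone and Rab3 proteins 1, of 6 other synaptotagmins 0 and of 12 other vesicle membrane proteins 0. Dnm1, the dynamin that cuts vesicles from the membrane, read 8.61, 8.73, 8.04 and 7.96 in IMO samples and 7.50, 7.97, 7.57 and 7.56 in No stress samples. Only IMO replicate 4 and No stress replicate 6 overlapped. The difference was 0.69 (standard error 0.182, unadjusted limma p 0.00327, adjusted p 0.333), and its other 2 tested probes gave 0.31 and 0.28.

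Amph, which encodes the membrane-curving protein amphiphysin, read 10.87, 11.03, 11.10 and 10.96 in IMO samples and 10.62, 10.60, 10.77 and 10.86 in No stress samples, without overlap. Its difference was 0.28 (standard error 0.0926, unadjusted limma p 0.0126). The clathrin adaptor subunit Ap2a1 had a difference of 0.30 (0.114), the active zone kinase-like scaffold Cask one of 0.23 (0.0922) and the endosomal SNARE Vamp4 one of 0.23 (0.0938), and the other probe of Vamp4 gave 0.01. Dnm1 and Amph stayed under an unadjusted p of 0.05 with each of the 8 arrays left out. Ap2a1 did not without IMO replicate 2 (p 0.0501) or 4 (0.0574) or No stress replicate 6 (0.0633), nor Cask without IMO replicate 2 (0.0778) or 3 (0.0802) or No stress replicate 5 (0.0542) or 6 (0.0863). For Vamp4 the p was over 0.05 without IMO replicate 2 (0.0858), 3 (0.0580) or 4 (0.0870) or No stress replicate 7 (0.0981). In the second table none of the 5 had an unadjusted p under 0.05, and the count without single arrays ran from 2 (without IMO replicate 2, all genes 3.12%) to 7 (without IMO replicate 1, all genes 5.78%). On the lower side, 5 were counted without No stress replicate 6 (all genes 6.39%) and 3 without both arrays that stood apart (all genes 6.45%).

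Markers of other cells in the punches are given here for the whole lists, and their part in the results above was not tested. Of 9 interneuron markers, all tested, 0 were higher and 1 lower at an unadjusted limma p under 0.05, Pvalb, with a difference of -0.48 (p 0.0311). The centred mean of that list ran from -0.144 to 0.192 in IMO samples and from -0.161 to 0.381 in No stress samples. Of 10 myelin markers 9 were tested, and their centred mean was 1.003 in IMO replicate 1 and 1.163 in No stress replicate 6 against -0.714 to 0.064 elsewhere. Upper-layer cortical markers (7 of 8 tested) had centred means of -0.071 to 0.191 in IMO samples and of -0.474 to 0.163 in No stress samples, the lowest in No stress replicate 6, and Rorb and Inhba were higher at an unadjusted p under 0.05. Deep-layer markers (7 of 8 tested) had means of -0.380 to 0.185 in IMO and -0.255 to 0.288 in No stress samples, and striatal markers (7 of 9) of -0.434 to 0.391 and -0.352 to 0.611. Astrocyte markers (7 of 7) ran from -0.311 to 0.407 and from -0.479 to 0.176, microglial markers (8 of 8) from -0.070 to 0.008 and from -0.074 to 0.162, and endothelial markers (6 of 7) from -0.213 to 0.182 and from -0.005 to 0.284. Blood markers (4 of 4) ran from -0.744 to 0.334 and from -0.032 to 1.022. In the interneuron, striatal and astrocyte lists the highest mean of each group was in IMO replicate 1 and No stress replicate 6. At the same threshold Elavl3 (neurons) and Cx3cr1 (microglia) were higher, and P2ry12 (microglia), Cldn5 (endothelium), Hba-a1 and Hbb-bt (blood) were lower.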

How the data were processed

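Total RNA was isolated with RNeasy columns and made into biotinylated cRNA for Illumina arrays, per the labels' protocols. The authors deposited linear signal intensity per probe in 2 tables; the second, which they call non-normalized, also gives detection p-values, per the file headers. Steps after scanning are not given in the sources used here. Sorted columns are nearly equal in both tables, the form that quantile normalization leaves, so no further normalization was applied.

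Signals of the value table (lowest 26.9) were taken to log2 without a pseudocount. Probes that 4 or more of the 8 arrays detected (detection p under 0.05), 20531 in all, were tested with limma 3.58.1 in R 4.3.3 (lmFit, eBayes), IMO against No stress, adjusted over all probes. The fit was tested on simulated data. Groups come from the sample titles, whose replicate numbers do not repeat, so nothing pairs the arrays. The platform annotation gives 1 symbol to 34885 probes, several to 18 and none to 10378; through Entrez gene IDs 0 symbols changed. A gene is represented by the tested probe of highest mean signal. Paralogue ratios had exact permutation tests over the 70 assignments of arrays.

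The members, the lists, the pairs and the arrays left out were chosen with earlier results of these data known. Values in every array are given for members with an unadjusted p under 0.05 or with groups apart and for the 2 members of smallest p in each of 10 families; of the other pathway genes those with an unadjusted p under 0.05 are named. Alternatives were median scaling, cyclic loess, normexp with offset 50, other probe filters, trend and robust variance, a gene's mean probe, the second table and arrays left out. Precision is limited by the number of arrays: a member's log2 difference had a median standard error of 0.127.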

Additional observations from a re-analysis of the deposited data

Results flagged for a closer look

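Within groups of 4 arrays, 4 of 62 looked at among the members held a value far from the other 3; chance gives about 1 in 20. Vamp1 was at a log2 signal of 8.36 in IMO replicate 1, where the other IMO arrays had 7.56 to 7.63. In the same array Napa was at 10.06 against 9.77 to 9.79. Vamp2 was at 12.54 in IMO replicate 3 against 12.29 to 12.33 in the other IMO arrays. Syt1 was at 13.97 in No stress replicate 7 against 13.79 to 13.82 in the other No stress arrays. Among the 32 groups of paralogue ratios 0 held such a value.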

How the results depend on the processing

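With signals from the second table instead, 0 members were higher and 0 lower at an unadjusted limma p under 0.05 (all genes 0.626% and 2.26%), the median member difference was -0.0649, and 0 other pathway genes were higher and 1 lower. Syn3 turned to -0.2222, Dnm1 to -0.0335, Amph to -0.0609, Ap2a1 to -0.1381 and Vamp4 to -0.0543. Probes past the adjusted p numbered 0 under the alternatives run, except 1 (Nwd2) without both IMO replicate 1 and No stress replicate 6. That setting also gave 2 ratios without overlap (Bsn/Pclo and Sv2a/Sv2b) and 3 lower pathway genes, with fewer arrays to overlap. Cyclic loess and the mean of a gene's tested probes each gave 1 ratio without overlap, Bsn/Pclo, against 0 in the main setting. Requiring detection on all 8 arrays left 1 higher member, since Bsn was then not tested, and the mean of a gene's probes left 1 lower member, Vamp2. Rims1 was the 1 member added, making 3 higher, under normexp, no filter and trend with robust variance. In these settings and under cyclic loess 1 pathway gene was lower. Shares of all genes were not computed for the settings that changed normalization, probe filter, variance model or probe choice. Their counts are therefore descriptions only. With single arrays left out, higher members ranged from 2 to 4 (4 without IMO replicate 4, all genes 3.67%) and lower members from 1 to 3 (3 without IMO replicate 1, all genes 6.11%; 1 without IMO replicate 2, 3 or 4 or No stress replicate 6, all genes 3.8%, 4.6%, 5.52% and 6.39%), ratios without overlap from 0 to 3 (3 without IMO replicate 3), higher pathway genes from 2 to 7 (2 without IMO replicate 2, all genes 3.12%; 3 without IMO replicate 3 or 4, all genes 3.78% and 3.67%) and lower ones from 0 to 5 (5 without No stress replicate 6); the median member difference ranged from -0.0243 to 0.0490. The sign of 16 of 31 member differences turned in at least 1 of these. The cause of these changes was not tested unless given. No paired analysis was possible because no replicate number is shared between the groups. Probes with signals near background, Bsn among them, may carry compressed differences, which was not tested. The Bsn difference was 0.3146 in the main setting and 0.2537 under normexp with offset 50. An offset added before log2 itself narrows differences at low signal, so these values do not test the compression.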

Other observations

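Some dimmer probes of members had an unadjusted limma p under 0.05 where the brightest probe did not. A Syt7 probe near background (ILMN_2571899) had a log2 difference of 0.26 (p 0.0457), with the brightest probe at 0.02, and a Vamp1 probe (ILMN_3137767) had one of -0.23 (p 0.0220), with the brightest at -0.02. Of 59 tested probes of the members, 5 were higher and 3 lower at that threshold, 8 in all, where the share of all tested probes in either direction was 10.6%. The shares of all probes by direction were not computed. The higher probes include the Syn3 probe that passed the detection filter through the IMO group (ILMN_2778216), so these counts are a description only. Of the 19 members with several tested probes, 10 had 1 sign in all of them.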
